A study of Mus musculus with 12 samples.

Results

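The levels of 8 genes of the IgG-sensing and lipid-sensing receptor system were compared in mouse lung endothelial cells (MLECs). They are the Fcγ receptor genes Fcgr1, Fcgr3, Fcgr4 and Fcgr2b, the signalling adaptor genes Fcer1g and Tyrobp, the receptor gene Trem2, and Fcgrt, which encodes the heavy chain of the neonatal Fc receptor. The genes were chosen by name from the 28689 genes of the deposited table, with earlier results of these data known. RNA was sequenced from MLECs of 6 CTR and 6 dKO libraries, all from adult mice (the study used males) homozygous for floxed alleles of Sp1 and Sp3 and given tamoxifen. dKO mice also carried the VE-CAD-CreERT2 transgene, in which the VE-cadherin promoter drives an inducible Cre recombinase, so that Sp1 and Sp3 were deleted in endothelial cells. CTR mice were littermates without the transgene and are labelled WT. The cells were taken from digested lung with magnetic beads against CD31, plated, selected again with beads against ICAM2, and used at early passages. Whether a library came from 1 mouse or from several is not given in the sources used here, so p-values measure the spread between these libraries.

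Activating Fcγ receptors bind the constant part of IgG in immune complexes and signal through an adaptor chain that carries an ITAM, a tyrosine motif which recruits the kinase Syk. The inhibitory receptor encoded by Fcgr2b carries an ITIM instead, which recruits phosphatases and damps the same signal. Trem2 binds lipids and apolipoproteins and signals through Tyrobp (also named DAP12). In the lung, most of these receptors are known from macrophages and other myeloid cells, whereas the neonatal Fc receptor is used by endothelial cells and macrophages alike to return IgG and albumin to the blood.

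Of the 8 genes, 7 were higher in dKO than in CTR MLECs, and Fcgrt did not pass the test. In the 7, every dKO library lay above every CTR library. The FPKM (fragments divided by gene length and library depth, thus a level per length) rose most in fold for Fcgr1, Trem2 and Fcgr3 and, among the 7, least for the shared adaptors Fcer1g and Tyrobp. The test was limma on log2(FPKM + 1), adjusted by Benjamini-Hochberg over the 12467 genes that reached 1 FPKM in 6 or more of the 12 libraries, and a gene was called at an adjusted p under 0.05. Calls were common in these data. Of all genes tested, 20.4% were called higher and 32.6% lower in dKO, and 11.3% had all dKO libraries above all CTR libraries. The 7 called genes each exceeded a log2 fold change of 1.5, as 1.43% of all genes tested did with a call in that direction. With median-of-ratios scaling, 3222 genes were called higher and 3010 lower, in place of 2549 and 4065. The median log2 fold change was 1.79 over the 8 genes and −0.10 over all genes tested. All 8 genes passed the filter on low values, but Fcgr1 passed through its dKO libraries alone, since 0 CTR libraries and 6 dKO libraries reached 1 FPKM.

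Libraries held between 15523054 and 17938286 fragments. Sp1 was at 21.2 ± 1.77 and 10.6 ± 1.53 FPKM (SD, n = 6 each) in CTR and dKO and was lower in each dKO library than in each CTR library (limma, log2 difference −0.945 ± 0.0912 (SE), adjusted p = 5.68e-06). Sp3 was at 27.7 ± 2.31 and 25.0 ± 1.64 FPKM (SD, n = 6 each), with an adjusted p of 0.0902 from limma, so the match of the table's columns to the groups rests on the labels and on Sp1. Of 12 endothelial markers tested, 11 were called higher and 0 lower in dKO. The 12 summed to 212 to 345 FPKM in CTR libraries and 389 to 525 FPKM in dKO libraries. Macrophage markers were also present in both groups, with a summed level of 806 to 1374 FPKM over 14 genes in CTR libraries and 1920 to 3980 FPKM in dKO libraries. Fibroblast markers summed to 2122 to 2689 FPKM over 6 genes in CTR libraries and 820 to 1645 FPKM in dKO libraries. In these bulk libraries, more cells of a type and more RNA per cell cannot be told apart, and this holds for every level given below.

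**Figure D1:**
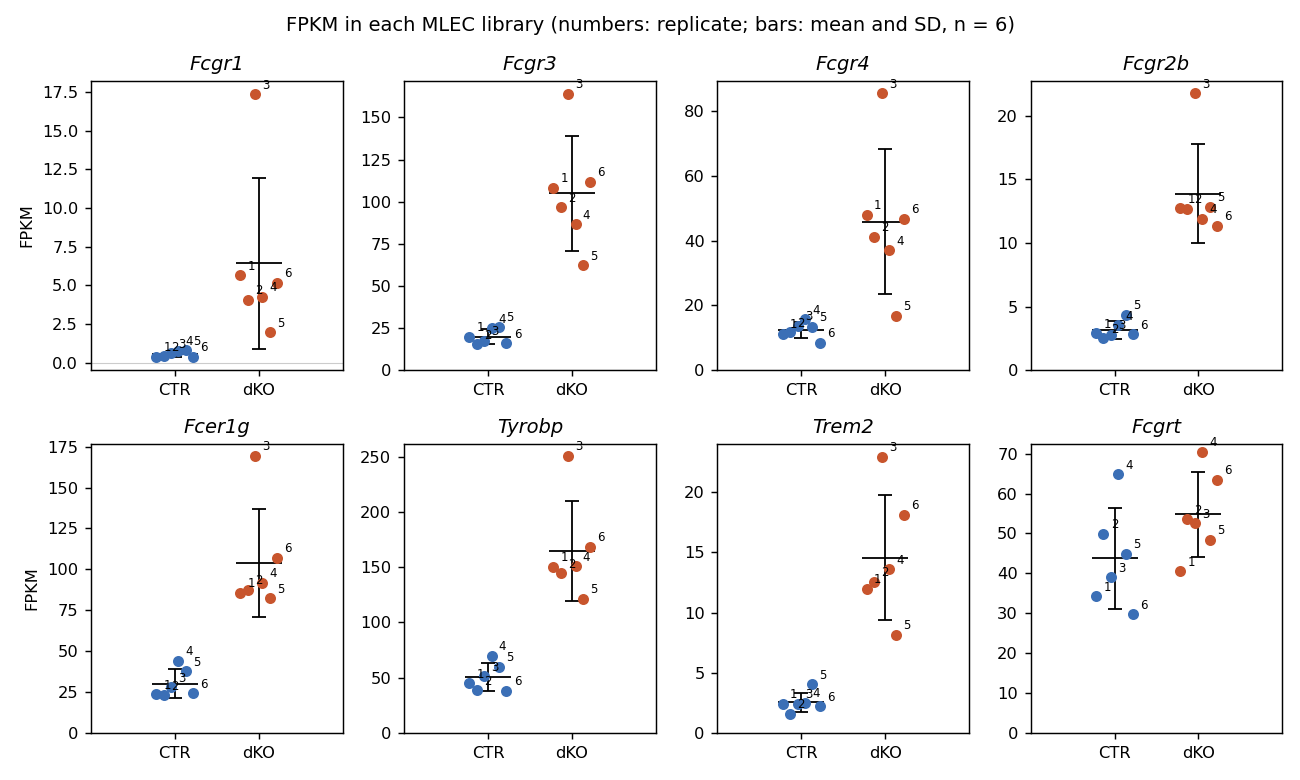
FPKM of each gene (vertical axes, linear, different range in each panel) in the 6 CTR (blue) and 6 dKO (orange) libraries. Points are libraries numbered by replicate and bars are the mean and SD. The groups are apart in every panel but that of Fcgrt, and dKO replicate 3 is the highest dKO library in 7 of the 8 panels.

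The promoters of 7 of the 8 genes, from 250 bases before to 50 bases after the start, were taken from RefSeq (GRCm38.p6) and searched on both strands. Fcgr3 had 2 starts, which gave 8 promoters, and Tyrobp, also called higher, had no entry. The GC box GGGCGG (or CCGCCC), a binding motif of Sp1 and Sp3, was in 0 of the 8 promoters, against 35.7% of 32851 promoters in the table. The core motif of PU.1, the myeloid transcription factor encoded by Spi1, is GAGGAAG (or CTTCCTC). It was in 5 of the 8 promoters (62.5%), those of 4 of the 7 genes, against 13.6% of all promoters. The 2 motifs can overlap by 1 base at most. The stretches around these matches are shown because the 4 genes that hold them, Fcgr1, Fcgr3, Fcgr4 and Trem2, and Spi1 itself were called higher. Each is given 5′ to 3′ on the strand of the gene, 30 bases long, with the match in capitals, and each was found once on GRCm39.
Fcgr1: atggcaacttcCTTCCTCttttctaatctt
Fcgr3: gagtccatttcCTTCCTCtttttgtagttc
Fcgr4: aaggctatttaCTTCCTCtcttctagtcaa
Trem2: agcctcctttcCTTCCTCcctccctcacgc
In all 4 the match reads CTTCCTC on the strand of the gene. It starts 56 bases before the RefSeq start in Fcgr1, 16 in Fcgr3 (from its second listed start), 23 in Fcgr4 and 41 in Trem2. The stretches lie at chr3:96201323-96201352 (Fcgr1, minus strand), chr1:170886961-170886990 (Fcgr3, minus strand), chr1:170846461-170846490 (Fcgr4, plus strand) and chr17:48653377-48653406 (Trem2, plus strand). GENCODE M39 starts some transcripts farther upstream, so that 16, 30 and 25 of the 30 bases of Fcgr1, Fcgr3 and Fcgr4 are exonic in it, and 0 of those of Trem2. A match is no measured binding site, and a part of PU.1 in the levels of these genes was not tested. Fcgr2b and Fcer1g, which were also called higher, held neither motif in this window, and nor did Fcgrt.

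Fcgr1 (ENSMUSG00000015947) encodes FcγRI, the high-affinity IgG receptor. It lies on chromosome 3 from 96190225 to 96201338 (GRCm39, as for all genes). Its FPKM in CTR libraries had a lowest value of 0.399, a median of 0.509 and a highest value of 0.835. In dKO libraries the lowest value was 1.96, the median 4.73 and the highest 17.3. Fcgr1 was thus the least abundant of the 8 genes in both groups, and it had the widest spread among dKO libraries relative to its mean (a coefficient of variation of 85.7%), with replicate 3 at the top and replicate 5 at the bottom. The means were 0.576 ± 0.202 and 6.42 ± 5.50 FPKM (SD, n = 6 each), a ratio of 11.1. These CTR values rest on 153 fragments over the 6 libraries, against 1714 fragments in dKO. On the log2(FPKM + 1) scale, which understates the change of low genes, the difference was 1.999 ± 0.319 (SE), with an adjusted p of 0.000224 by limma, and it was 3.19 with a pseudocount of 0.01.

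Fcgr3 (ENSMUSG00000059498) encodes FcγRIII, a low-affinity receptor for immune complexes, and lies on chromosome 1 from 170878738 to 170893549. In CTR libraries its FPKM had a lowest value of 15.3, a median of 18.6 and a highest value of 25.9. In dKO libraries these were 62.2, 103 and 164. It was the most abundant Fcγ receptor gene in all 12 libraries, and the lowest dKO library held 2.41 times the FPKM of the highest CTR library. The means were 19.9 ± 4.53 and 105 ± 34.1 FPKM (SD, n = 6 each), a ratio of 5.27. By limma this was 2.31 ± 0.20 (SE) on the log2 scale, at an adjusted p of 2.85e-06, the highest of the 8 on this scale.

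Fcgr4 (ENSMUSG00000059089) encodes FcγRIV, which binds the mouse subclasses IgG2a and IgG2b, and lies on chromosome 1 from 170846466 to 170857330, between Fcgr2b and Fcgr3. Its FPKM had a lowest value of 8.47, a median of 12.6 and a highest value of 15.7 in CTR libraries. In dKO libraries the lowest value was 16.8, the median 44.0 and the highest 85.4. Here the groups came closest among the 7 called genes, since dKO replicate 5 exceeded CTR replicate 4 by a ratio of only 1.07. The means were 12.4 ± 2.48 and 45.9 ± 22.4 FPKM (SD, n = 6 each), a ratio of 3.70, or 1.68 ± 0.29 (SE) as the log2 difference, which limma gave an adjusted p of 0.000343.

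Fcgr2b (ENSMUSG00000026656), the gene of the inhibitory receptor, is known from macrophages and B cells and also from sinusoidal endothelium of the liver. It lies on chromosome 1 from 170786186 to 170804177. Its FPKM had a lowest value of 2.52, a median of 2.86 and a highest value of 4.37 in CTR libraries. In dKO libraries these were 11.4, 12.7 and 21.8. All dKO libraries but 1 lay between 11.4 and 12.8 FPKM, the exception being replicate 3. The means were 3.15 ± 0.684 and 13.9 ± 3.90 FPKM (SD, n = 6 each), a ratio of 4.40, and limma put the log2 difference at 1.82 ± 0.15 (SE), adjusted p 1.64e-06. Of 6 sinusoidal endothelial markers, 2 were tested. Stab1, a scavenger receptor gene of sinusoidal endothelium and of macrophages, was called higher, from 14.2 to 51.7 FPKM. Lyve1 was at 104 and 119 FPKM and was not called. The other 4 were too low to test, with Stab2 at 0.124 and 1.25 FPKM and no overlap between the groups, Oit3 at 0.213 and 0.915 FPKM, Clec1b at 0.295 and 0.279 FPKM, and Clec4g at or near 0.

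Reads of Fcgr2b and Fcgr3 may be split between them. Over 519 bases their transcripts are 96.1% identical, and the authors kept uniquely aligned reads. No other pair of the 8 genes, and no other annotated gene of the table, shared at least 100 bases at 90% identity or more with them, apart from a match of 136 bases between Fcgr3 and Gm70157. The values of these 2 genes are therefore less certain than those of the other 6.

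Summed over the 4 Fcγ receptor genes, the level was 36.0 ± 7.21 FPKM in CTR and 171 ± 64.9 FPKM in dKO libraries (SD, n = 6 each). Fcgr3 made up 55.1% ± 3.50 of this sum in CTR and 62.2% ± 3.11 in dKO libraries, and Fcgr4 made up 34.5% ± 4.18 and 25.8% ± 4.04 (SD, n = 6 each). Fcgr2b held 8.78% ± 0.970 and 8.62% ± 2.58, and Fcgr1 held 1.57% ± 0.278 and 3.33% ± 1.37 (SD, n = 6 each). The ratio of the 3 activating genes to the inhibitory Fcgr2b was 10.5 ± 1.20 in CTR and 11.3 ± 2.75 in dKO libraries (SD, n = 6 each). The groups overlapped in this ratio, with dKO replicate 5 the lowest of all libraries at 6.31 and dKO replicate 6 the highest at 14.4. So the activating and the inhibitory genes were higher together in dKO MLECs, and no test was made of their balance as a sum.

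**Figure D2:**
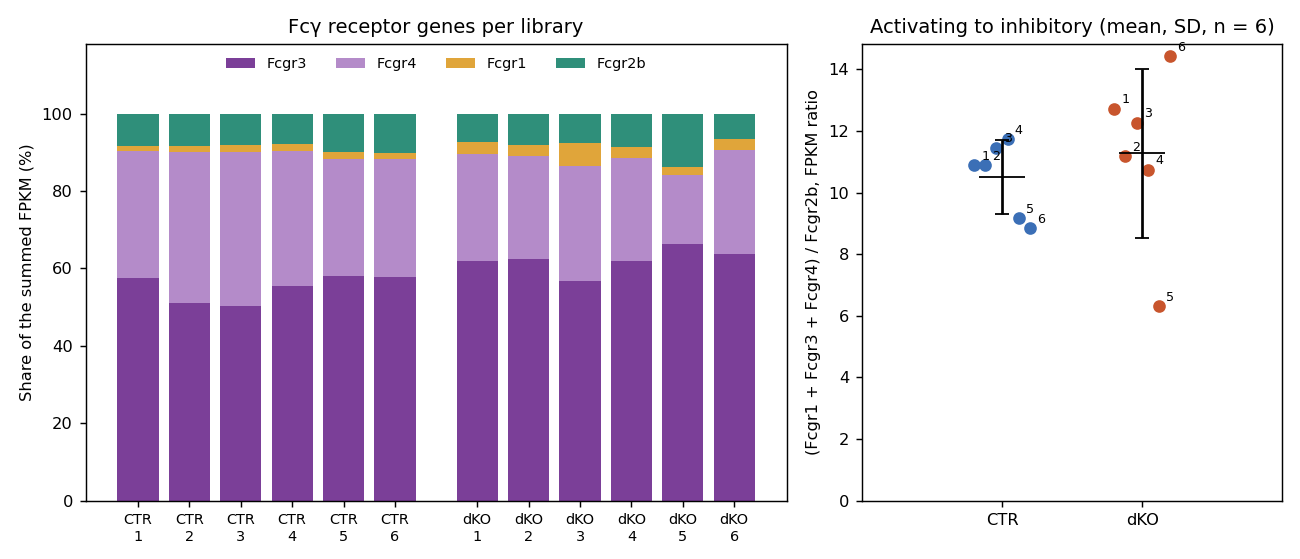
Left, share of each Fcγ receptor gene in the summed FPKM of the 4 genes (vertical axis, %), with 1 bar per library. Right, ratio of the summed FPKM of Fcgr1, Fcgr3 and Fcgr4 to that of Fcgr2b, with libraries as numbered points and the mean and SD as bars. Fcgr3 holds the largest share in every library, and the ratio overlaps between CTR (8.84 to 11.7) and dKO (6.31 to 14.4).

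Fcer1g (ENSMUSG00000058715) encodes the common γ chain, the ITAM adaptor that FcγRI, FcγRIII and FcγRIV need, and lies on chromosome 1 from 171057141 to 171062219. Its FPKM had a lowest value of 23.1, a median of 26.1 and a highest value of 44.1 in CTR libraries. In dKO libraries these were 82.5, 89.7 and 169. All dKO libraries but replicate 3 lay between 82.5 and 107 FPKM. The means were 30.2 ± 8.76 and 104 ± 33.2 FPKM (SD, n = 6 each), a ratio of 3.45, or 1.75 ± 0.20 (SE) as the log2 difference, which limma gave an adjusted p of 1.78e-05.

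Tyrobp (ENSMUSG00000030579), the ITAM adaptor of Trem2 and of many activating myeloid and natural killer cell receptors, lies on chromosome 7 from 30113170 to 30117010. In CTR libraries its FPKM had a lowest value of 38.1, a median of 48.2 and a highest value of 69.7. In dKO libraries these were 121, 150.5 and 251. Tyrobp was the most abundant of the 8 genes by group mean, in CTR and in dKO alike. The means were 50.5 ± 12.5 and 164 ± 45.0 FPKM (SD, n = 6 each), a ratio of 3.26, and limma put the log2 difference at 1.68 ± 0.18 (SE), adjusted p 1.17e-05. The change of Tyrobp relative to Fcer1g did not pass the test. The log2 ratio of Tyrobp to Fcer1g was 0.73 ± 0.12 in CTR and 0.67 ± 0.10 in dKO libraries (SD, n = 6 each), a difference of −0.07 (two-sided exact permutation test, p = 0.299, adjusted p = 0.299 over 5 gene pairs).

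Trem2 (ENSMUSG00000023992) lies on chromosome 17 from 48653429 to 48661175. Its FPKM had a lowest value of 1.60, a median of 2.43 and a highest value of 4.03 in CTR libraries. In dKO libraries these were 8.15, 13.1 and 22.9. The highest CTR library was replicate 5, and the lowest dKO library still held 2.02 times its FPKM. The means were 2.54 ± 0.804 and 14.6 ± 5.21 FPKM (SD, n = 6 each), a ratio of 5.74, or 2.1 ± 0.21 (SE) as the log2 difference, which limma gave an adjusted p of 6.99e-06. Trem2 rose more than its adaptor. The log2 ratio of Trem2 to Tyrobp went from −3.86 ± 0.28 in CTR to −3.44 ± 0.20 in dKO libraries (SD, n = 6 each), a difference of 0.42 (two-sided exact permutation test, p = 0.0108, adjusted p = 0.0216 over 5 gene pairs), although the ranges of the groups overlapped.

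Fcgrt (ENSMUSG00000003420) lies on chromosome 7 from 44742412 to 44756819. The neonatal Fc receptor binds IgG at acid pH inside the cell and needs β2-microglobulin, the product of B2m, as its light chain. Its FPKM had a lowest value of 29.7, a median of 42.0 and a highest value of 64.8 in CTR libraries. In dKO libraries these were 40.5, 53.1 and 70.4. Only dKO replicate 4 lay above all CTR libraries, and 3 CTR libraries lay above the lowest dKO library. The means were 43.8 ± 12.6 and 54.8 ± 10.7 FPKM (SD, n = 6 each), a ratio of 1.25. By limma this was 0.34 ± 0.18 (SE) on the log2 scale, at an adjusted p of 0.120. CTR replicate 4 weighed on this value, for without it the log2 fold change was 0.46 with an adjusted p of 0.0232 from limma.

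B2m, in contrast, was at 409 ± 49.4 FPKM in CTR and 1610 ± 187 FPKM in dKO libraries (SD, n = 6 each), or 1.97 ± 0.10 (SE) as the log2 difference, which limma gave an adjusted p of 6.88e-08. It is also the light chain of MHC class I molecules. The log2 ratio of Fcgrt to B2m was −3.23 ± 0.26 in CTR and −4.86 ± 0.36 in dKO libraries (SD, n = 6 each). It fell by 1.63, with no overlap between the groups (two-sided exact permutation test, p = 0.00216, adjusted p = 0.0108 over 5 gene pairs). No lower p is possible in this design (6 libraries in each group).

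The other pairs set an activating gene against its adaptor or its inhibitory counterpart. The log2 ratio of Fcgr3 to Fcgr2b was 2.32 ± 0.13 in CTR and 2.81 ± 0.34 in dKO libraries (SD, n = 6 each), a difference of 0.48 (two-sided exact permutation test, p = 0.0130, adjusted p = 0.0216). This call depended on the pseudocount of 1, since with 0.1 the difference was 0.27 (exact permutation test, adjusted p = 0.122), and with 0.01 it was 0.24 (exact permutation test, adjusted p = 0.170). For Fcgr1 against Fcer1g the difference was 0.25 (exact permutation test, p = 0.297, adjusted p = 0.299), but it was 1.22 with a pseudocount of 0.1 (exact permutation test, adjusted p = 0.00722). Of the 5 pairs, Trem2/Tyrobp and Fcgrt/B2m passed at each of the 3 pseudocounts.

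In order of mean FPKM, CTR libraries had Tyrobp, Fcgrt, Fcer1g, Fcgr3, Fcgr4, Fcgr2b, Trem2 and Fcgr1. In dKO libraries the order was Tyrobp, Fcgr3, Fcer1g, Fcgrt, Fcgr4, Trem2, Fcgr2b and Fcgr1. Fcgr3 thus moved from below to beside its adaptor Fcer1g, at 105 ± 34.1 and 104 ± 33.2 FPKM in dKO (SD, n = 6 each). Trem2 and Fcgr2b lay within 1 SD of each other in both groups, as did Tyrobp and Fcgrt in CTR libraries and Fcgrt and Fcgr4 in dKO libraries.

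**Figure D3:**
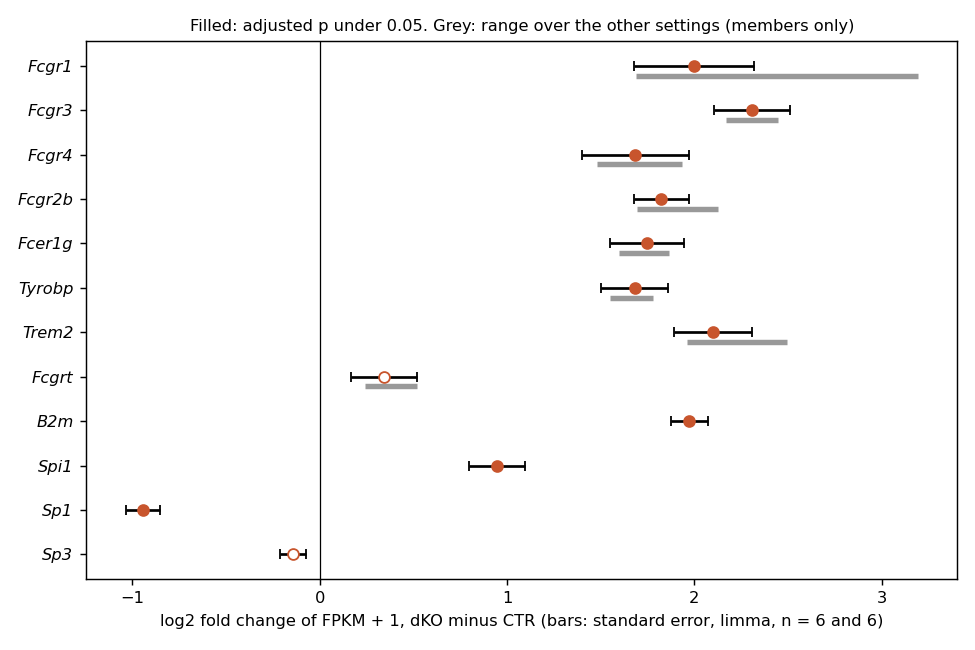
Log2 fold change of FPKM + 1, dKO minus CTR (horizontal axis), with its standard error from limma (n = 6 libraries per group) for the 8 genes, B2m, Spi1, Sp1 and Sp3. Filled points had an adjusted p under 0.05, and grey bars span the values of the 8 genes over the other settings. The 7 called genes lie between 1.68 and 2.31, and Fcgrt lies at 0.34.

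Among dKO libraries, replicate 3 was the highest for 7 of the 8 genes, the exception being Fcgrt, and replicate 5 was the lowest for 6. In CTR libraries, replicate 4 or replicate 5 was the highest for each gene. The residuals from the group means over the 12 libraries went together most for Tyrobp and Fcer1g, with a Pearson r of 0.962, and for Fcgr1 and Fcgr4, with 0.918. Fcgrt stood apart, with an r of at most 0.461 with any of the others. These coefficients describe 12 libraries in 2 groups, and the libraries share their depth across genes.

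By the same residuals, the genes most like Tyrobp among those tested included Cd68 (r = 0.960), a lysosomal glycoprotein gene of macrophages, and Itgb2 (0.955), the common chain of leukocyte integrins. Those most like Trem2 were C1qb (0.978) and C1qa (0.956), which encode chains of the first complement component, and the chemokine receptor gene Ccr1 (0.951). Nearest to Fcgr2b were Sema4d (0.952), a semaphorin gene, and the membrane protein genes Ms4a6d (0.943) and Ms4a4a (0.940). Nearest to Fcgrt were Pdk2 (0.987), a mitochondrial kinase gene, Atg13 (0.986), an autophagy gene, and Slc43a1 (0.984), an amino acid transporter gene, of which Slc43a1 was lower in dKO (log2 fold change −0.86, adjusted p = 0.000658 from limma) and the others were not called.

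Macrophage markers moved with the 7 called genes. Of 14 markers listed, 12 were tested, of which 11 were called higher and 1 lower. Cd68 went from 85.2 ± 17.0 to 340 ± 96.8 FPKM (SD, n = 6 each), Itgam, an integrin gene of myeloid cells, from 1.16 ± 0.299 to 8.24 ± 3.15 FPKM, and Lyz2, lysozyme, from 746 ± 160 to 1868 ± 580 FPKM. Marco, a scavenger receptor gene of alveolar macrophages, went the other way, from 119 ± 20.8 to 43.1 ± 39.6 FPKM (SD, n = 6 each, log2 fold change −1.91, adjusted p = 0.00404 from limma). Siglecf, which marks the same cells, was at 0.795 and 0.348 FPKM and was not tested. Spi1, the gene of PU.1, was called higher, from 8.11 ± 1.89 to 16.6 ± 3.86 FPKM (SD, n = 6 each, log2 fold change 0.95, adjusted p = 0.000205 from limma). The part of the macrophage markers in the differences of the 8 genes was not tested.

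The mean log2(FPKM + 1) of the 12 tested markers rose by 1.03, from 4.22 ± 0.20 to 5.25 ± 0.34 (SD, n = 6 each). Taken relative to this mean, the log2 level of Fcgr3 was 1.28 higher in dKO than in CTR libraries, that of Trem2 1.07 and that of Fcgr1 0.97. The other called genes gave differences of 0.65 (Tyrobp) to 0.80 (Fcgr2b), and Fcgrt gave −0.69. For Fcgr2b, Fcgr3, Fcer1g, Tyrobp and Trem2 every dKO library lay above every CTR library on the scale relative to the marker mean. The share of all genes tested that separate on that scale was not counted. With Marco left out, a choice made after its value was seen, the marker mean rose by 1.29. The differences then ran from 0.39 for Tyrobp and Fcgr4 to 1.01 for Fcgr3, with Fcgrt at −0.95. Of the 5 genes, Fcgr2b and Fcgr3 alone kept groups that did not overlap, and the groups of Fcgrt, which overlapped with all 12 markers, did not overlap without Marco.

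Within CTR libraries, Tyrobp followed the marker mean closely (Pearson r = 0.992, exact permutation p = 0.00139, adjusted p = 0.0222 over 16 relations, and Spearman rho = 1.0, exact permutation p = 0.00278, adjusted p = 0.0444, n = 6). Without the 2 libraries farthest from the median, r was 0.969. Fcer1g had an r of 0.970 (exact permutation p = 0.00556, adjusted p = 0.0444, n = 6) but a rho of 0.829 (exact permutation p = 0.0583, adjusted p = 0.187, n = 6). The other 6 genes did not pass in CTR libraries after adjustment. In dKO libraries none of the 8 genes passed. There Tyrobp had an r of 0.835 (exact permutation p = 0.111, adjusted p = 0.178, n = 6), which was −0.697 without replicates 1 and 3, so the relation rested on those libraries. No coefficient over all 12 libraries is given, because the groups form separate clusters.

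**Figure D4:**
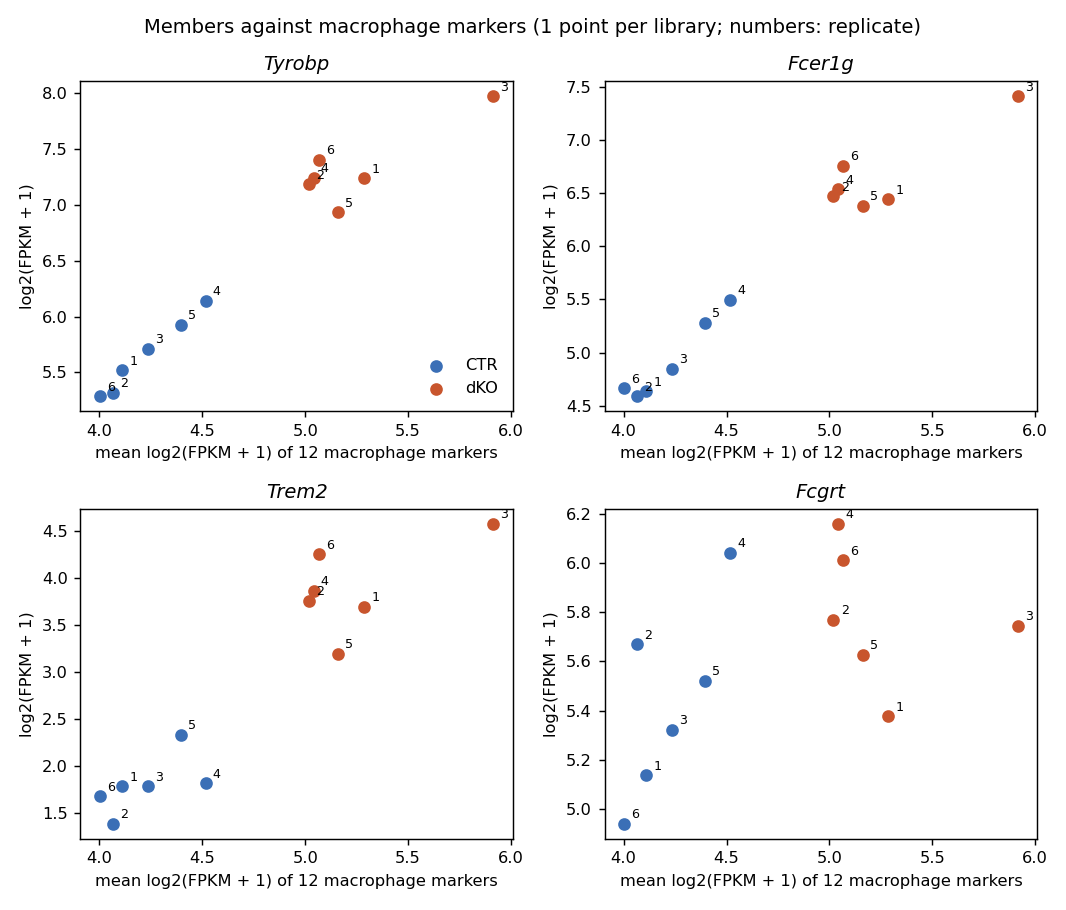
Log2(FPKM + 1) of Tyrobp, Fcer1g, Trem2 and Fcgrt (vertical axes) against the mean log2(FPKM + 1) of 12 macrophage markers (horizontal axes), with 1 point per library, numbered by replicate. CTR libraries (blue) lie on a line for Tyrobp (r = 0.992), the dKO libraries (orange) lie to the right of them, and dKO replicate 3 lies farthest out.

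B cell markers and T and NK cell markers were low. All 4 B cell markers in the table summed to at most 0.374 FPKM in any library, and all 5 T and NK cell markers to at most 0.927 FPKM. Of 8 neutrophil markers, Mmp8 and S100a8 were called higher, Mmp8 from 51.1 to 223 FPKM and S100a8 from 2.12 to 5.50 FPKM, and the other 6 did not pass the filter. The neutrophil gene Ly6g was at or near 0 in all libraries, with a mean of 0.00986 FPKM in dKO. Of 6 mast cell and basophil markers, 3 were tested and 0 called. Dendritic cell markers gave 1 call of 2 tested, Clec9a, which went from 1.10 to 1.60 FPKM. Fibroblast markers, whose high summed level is given above, went mostly down, with 3 of 5 tested called lower and 1 higher.

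The other members of the Fc receptor family were mostly near 0. Of 13 in the table, 2 passed the filter on low values, and both were called higher. They were B2m and Trim21. B2m is listed as the light chain of the neonatal Fc receptor and is itself no Fc receptor. Trim21, the intracellular Fc receptor and ubiquitin ligase, was at 2.93 ± 0.648 and 4.46 ± 1.09 FPKM (SD, n = 6 each, log2 fold change 0.46, adjusted p = 0.0127 from limma). The IgE receptor gene Ms4a2, the IgM receptor gene Fcmr and the polymeric immunoglobulin receptor gene Pigr stayed below 0.1 FPKM in every library.

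In the list of receptors paired with Tyrobp or Fcer1g, 8 of 27 genes in the table passed the filter, with 7 called higher and 0 lower. Of these, Cd300lb, Cd300ld and Milr1 passed through their dKO libraries alone, and among the other 5 tested genes 4 were called higher (median 0.79). Of all genes tested, 20.4% were called higher, and 11 of the 12 endothelial markers were, with a median of 0.82. Such a rise was thus not particular to this list. The list also holds Hcst, which encodes an adaptor, and Milr1, which encodes the ITIM receptor allergin-1. Of the tested receptors that did not pass through dKO libraries alone, Cd300c2, Clec4d and Clec4n were called higher and Lilra5 was not called. Clec4d, which senses mycobacterial glycolipids through Fcer1g, went from 2.02 ± 1.71 to 25.8 ± 10.7 FPKM (SD, n = 6 each, log2 fold change 3.21, adjusted p = 5.15e-06 from limma). Clec4n, which encodes dectin-2, a receptor for fungal mannans, went from 2.16 ± 1.03 to 10.9 ± 5.51 FPKM (SD, n = 6 each, log2 fold change 1.87). Milr1 went from 0.773 to 2.93 FPKM. Trem1, another receptor that signals through Tyrobp, was near 0, at 0.0293 and 0.194 FPKM, and was not tested.

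Downstream of the ITAM, 14 of 17 tested signalling genes were called higher and 0 lower, with a median log2 fold change of 0.68. Of all genes tested, 20.4% were called higher. The endothelial markers, with 11 of 12 called higher, had a median of 0.82. A rise of this size was thus not particular to this list or to the ITIM and Trem2 lists below. Fyb1 and Pik3cg passed the filter through their dKO libraries alone, and 12 of the other 15 were called higher (median 0.65). Lat2, an adaptor gene, went from 0.505 ± 0.295 to 3.31 ± 0.965 FPKM (SD, n = 6 each). Fyb1, an adaptor gene of haematopoietic cells, went from 0.449 to 2.52 FPKM. The 2 most abundant genes of the list moved less. They were Prkcd, a protein kinase C gene (log2 fold change 0.31), and Lyn, a kinase that phosphorylates ITAMs and ITIMs alike (0.65). Syk itself, named after its values were seen, was at 4.05 and 8.37 FPKM (log2 fold change 0.87, adjusted p = 0.000323 from limma).

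On the inhibitory side, 8 of 12 tested ITIM receptors and phosphatases were called higher and 0 lower, with a median log2 fold change of 0.81. Lair1 passed the filter through its dKO libraries alone, and 7 of the other 11 were called higher (median 0.78). Pirb, a receptor for MHC class I, went from 5.11 ± 0.895 to 14.3 ± 4.57 FPKM, and Ptpn6, which encodes the phosphatase SHP-1, from 3.95 ± 0.790 to 10.97 ± 3.29 FPKM (SD, n = 6 each). Cd300lf, a lipid receptor gene, went from 5.68 to 14.3 FPKM and Sirpa, the receptor of CD47, from 27.4 to 47.4 FPKM. Ptpn11, which encodes the related phosphatase SHP-2 and is expressed in most cells, was at 28.6 and 28.0 FPKM and was not called (log2 fold change −0.03).

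For Trem2, 8 of 11 genes of its ligands and processing were called higher and 0 lower. Apoe, an apolipoprotein gene that is also a Trem2 ligand, went from 292 ± 196 to 1029 ± 451 FPKM (SD, n = 6 each, log2 fold change 1.96, adjusted p = 0.00137 from limma). Anxa5, which binds phosphatidylserine, went from 201 to 311 FPKM. Ms4a4a (log2 fold change 3.77) and Ms4a6d (2.24), from the gene cluster known for its link to soluble TREM2, rose most, while the sheddase genes Adam10 (0.15) and Adam17 (−0.17) were not called. Of 17 tested genes known from Trem2-associated lipid macrophages, 15 were called higher and 0 lower, with a median of 0.76. Gpnmb, a lysosomal membrane protein gene, went from 72.9 ± 18.8 to 541 ± 143 FPKM, and the protease genes Ctsd and Ctsb from 255 to 720 and from 312 to 840 FPKM (SD of Gpnmb, n = 6 each). Clec7a, the β-glucan receptor gene, went from 8.97 to 26.8 FPKM. Spp1, osteopontin, was high in both groups at 500 ± 241 and 706 ± 231 FPKM (SD, n = 6 each) and was not called.

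**Figure D5:**
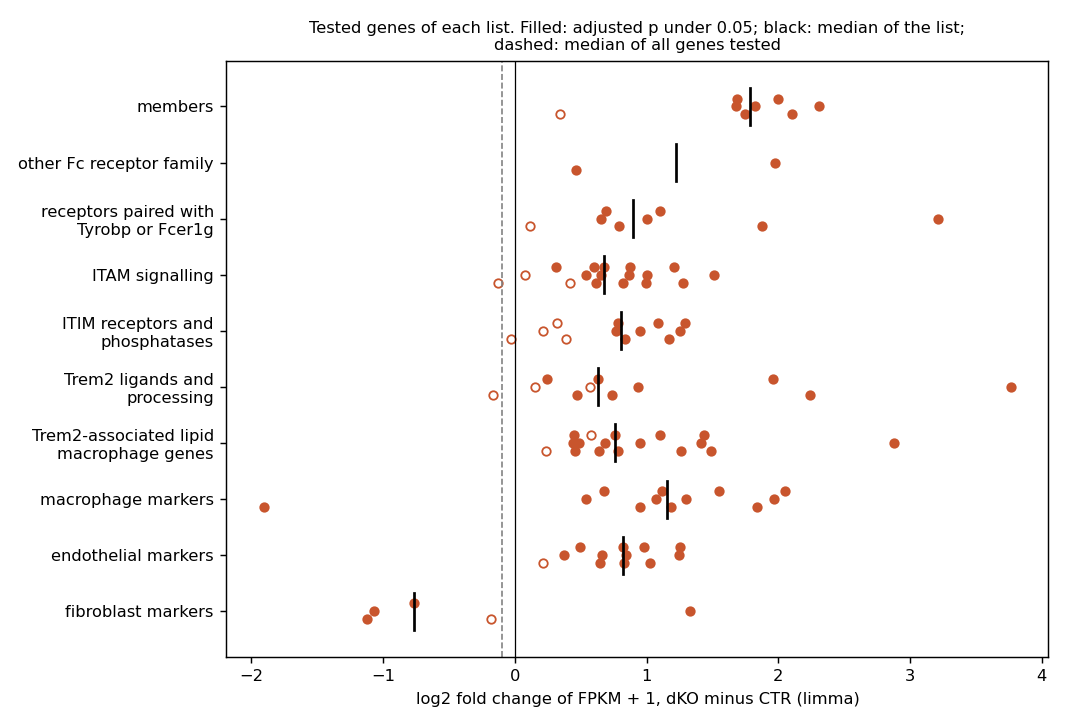
Log2 fold change of FPKM + 1, dKO minus CTR (horizontal axis), of each tested gene of the lists named on the vertical axis. Filled points had an adjusted p under 0.05 from limma, black bars are list medians, and the dashed line is the median of all genes tested (−0.10). The 8 genes have a median of 1.79, and Fcgr1 among them passed the filter through its dKO libraries alone. Genes and lists were chosen with earlier results of these data known, so the order of the medians is no test. Medians of the other lists drawn run from 1.22 for the other Fc receptor family (2 genes, B2m at 1.97 and Trim21 at 0.46) down to −0.77 for fibroblast markers. The 2 tested neutrophil markers, not drawn, have a median of 1.70.

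Of the 8 genes, 4 are near each other on chromosome 1, in the order Fcgr2b, Fcgr4, Fcgr3 and Fcer1g. Of 112 tested genes that start within 500000 bases of any of the 8, 24 were called higher and 37 lower, with a median log2 fold change of −0.08. This is near the background, since 20.4% of all genes tested were called higher and 32.6% lower, with a median of −0.10. Around the chromosome 1 genes, 9 of 21 were called higher and 3 lower, the largest rises being those of the pseudogene Tma7-ps (2.28) and of Slamf7 (1.95) and Cd48 (1.46), leukocyte surface genes of the neighbouring SLAM cluster. Next to Fcer1g, the mitochondrial protein gene Tomm40l was not called (log2 fold change −0.10). Hcst, next to Tyrobp, encodes the related adaptor DAP10 and was called higher, from 0.830 ± 0.610 to 1.83 ± 0.640 FPKM (SD, n = 6 each, log2 fold change 0.65, adjusted p = 0.0179 from limma). Trem6l, next to Trem2, was also called higher, from 0.730 to 2.75 FPKM, and Trem6l reached 1 FPKM in dKO libraries alone. Next to Fcgrt, Rcn3 was called lower (log2 fold change −0.53). The RNA genes that overlap the 8 genes and are in the table had at most 0.390 FPKM in any library.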

How the data were processed

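Per the study, reads were trimmed (Trimmomatic) and mapped to mm39 by STAR, and those with a unique place were taken out by sambamba and mapped a second time. The extraction text in the labels names another tissue than lung and was not relied on. The submitters' processing notes also name Bowtie2 2.2.3, HISAT2 2.1.0, TopHat2 and DESeq2, with no role given. The counting program, its annotation and its use of strand are not given in the sources used here. The authors deposited FPKM values of 28689 genes in 12 libraries, and 27706 genes were matched by Ensembl identifier to GENCODE M39 (GRCm39), which gave symbols and positions.

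FPKM values are not counts, so log2(FPKM + 1) was tested with limma 3.58.1 in R 4.3.3 (lmFit, eBayes with trend, no covariates) on genes that reached 1 FPKM in 6 or more libraries. Whole library totals and gene lengths were found that turn all values into whole fragments (tolerance 0.002), which served for depth and for limma-voom only. Totals lay between 15523054 and 17938286. The lowest chi-square per degree of freedom between 2 libraries of a group was 12.2, so no library repeats another. Steps were tested on simulated data. Pair ratios used two-sided exact permutation tests over 924 splits, correlations over 720 pairings. Transcripts were compared with BLAST 2.17.0. Other steps used Python 3.11.15, NumPy 2.4.6, SciPy 1.17.1, pandas 2.3.3 and Matplotlib 3.10.9.

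The genes and lists were chosen with earlier results of these data known. Besides the 8 genes, Sp1, Sp3, B2m and Spi1, the text names from each related list and the macrophage list the 3 called genes with the largest change and the 2 highest, the 3 genes most like Tyrobp, Fcgr2b, Fcgrt and Trem2, and chromosomal neighbours. Marker genes come from the lists, and any other gene was chosen after its values were seen. Some genes that this rule names are not reported here.

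Same-numbered libraries of the groups did not all deviate together (correlations of their deviations from −0.11 to 0.57), so the numbers were not taken to pair them. Alternatives were other pseudocounts (0.1 and 0.01), a filter of 5 FPKM or none, TPM, median-of-ratios scaling, quantile normalization, robust eBayes, limma-voom, the replicate block and each library left out. Leaving out 3 libraries together, leaving Marco out of the macrophage mean, and setting Hcst and Milr1 apart from the paired receptors were added after seeing the data.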

Additional observations from a re-analysis of the deposited data

Results flagged for a closer look

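In 5 of 36 groups of 6 values, a single library lay well away from the rest by Dixon's ratio. Chance would give about 1.8 such groups if the values were normal and the groups independent. The groups are not independent, since these genes vary together across libraries, so the count is no test of an excess. In 4 of the 5 groups the library was dKO replicate 3. It held 17.3 FPKM of Fcgr1, where the other dKO libraries held 1.96 to 5.67, and 21.8 FPKM of Fcgr2b, where the others held 11.4 to 12.8. For the adaptors it held 169 FPKM of Fcer1g (82.5 to 107 in the others) and 251 FPKM of Tyrobp (121 to 169). The mean log2 level of the macrophage markers was also highest there, at 5.91 against 5.02 to 5.29 in the other dKO libraries, and its part in these values was not tested. Among CTR libraries, replicate 5 held 4.03 FPKM of Trem2, where the others held 1.60 to 2.51. Without dKO replicate 3 the same 7 genes were called higher, with a log2 fold change of Fcgr1 of 1.69.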

How the results depend on the processing

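Of 474 values computed under other settings, 455 kept their direction and their side of the threshold, or moved by less than 1.5 times for counts, and 0 reversed. The 7 genes called higher stayed so in every setting that tested them (Fcgr1 was not tested at a filter of 5 FPKM), over 22 settings for Fcgr1 and 23 for the others. Fcgrt passed in 3 of 23 settings, with log2 fold changes of 0.34 with the replicate block (adjusted p = 0.0497 from limma), 0.52 without CTR libraries 4 and 5 and dKO library 3, and 0.24 to 0.46 with each library left out in turn, passing without CTR replicate 4 (0.46). Leaving out each library gave 5858 to 6841 calls over all genes. A filter of 5 FPKM left fewer genes to test and gave 4222 calls (1708 higher and 2514 lower) in place of 6614, with 1 call among the other Fc receptor genes, 3 among the paired receptors and 7 in ITAM signalling, and with no filter 12 paired receptors were called. The Fcgr3/Fcgr2b ratio lost its call at pseudocounts 0.1 (0.27) and 0.01 (0.24) and with TPM (0.32, exact permutation test, adjusted p = 0.0703). The Fcgr1/Fcer1g ratio gained one at 0.1 (1.22), at 0.01 (1.41) and with TPM (0.91, exact permutation test, adjusted p = 0.0216), and ran from 0.0910 to 0.41 with each library left out, passing without dKO replicate 5. With the replicate block, by exact sign flips of 6 differences, the ratios kept their values of 0.42 (Trem2/Tyrobp), 0.48 (Fcgr3/Fcgr2b) and −1.63 (Fcgrt/B2m) at an adjusted p of 0.104 each, in a design with few possible flips. Only 2 of 6 numbers correlated best with their own number, and with the block 9 ITIM genes and 9 Trem2 ligand genes passed in place of 8 each, and 6955 genes in place of 6614. Within 250000 bases of the 8 genes, 34 of 65 tested neighbours were called, in place of 61 of 112. Of all genes tested, 53.1% were called. The search for ITAM and ITIM motifs in proteins was not run. The cause of these shifts was not tested. Depth limits Fcgr1 most, with as few as 18 fragments in a CTR library.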
